A study of Homo sapiens with 102 samples.

Results

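The combination of imatinib with trametinib was profiled by Combi-Seq in K562, an established cell line from chronic myeloid leukaemia with the BCR-ABL fusion kinase. The libraries were chosen by their titles alone: 12 libraries held both drugs and 6 held the solvent DMSO in both drug positions, which makes 18 of the 102 libraries of the series. In Combi-Seq, single cells were enclosed with a drug pair in picolitre droplets, each drug carried its own barcode fragment, and the joined barcode primed reverse transcription, so that each library pooled the cells of 1 treatment. All cells, solvent controls included, were kept in droplets for 12 h before lysis. The pair was present in either listed order, Imatinib_Trametinib in 6 libraries and Trametinib_Imatinib in 6, and each order was run 3 times in the screen named dT and 3 times in the screen named Bio, in which the barcoding scheme had been changed. The solvent libraries, DMSO_DMSO, were run 3 times in each screen. The labels number the runs without saying what separates them, while the study describes its replicates as biologically independent, and the p-values measure the spread between these libraries.

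Imatinib blocks the kinase activity of ABL, including that of the BCR-ABL fusion on which K562 cells depend for growth and survival. One branch below BCR-ABL runs through RAS, RAF and the kinases MEK1 and MEK2 (genes MAP2K1 and MAP2K2) to the ERK kinases, and trametinib is an allosteric inhibitor of MEK1 and MEK2. The branch is known to drive growth, ribosome production and biosynthesis in these cells, so that the pair acts on the chain at its head and near its end.

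Against solvent, 1 gene passed the test over both screens. PYCR1, which encodes the enzyme that completes proline synthesis in mitochondria, fell from a level seen in all 6 solvent libraries to 0 counts in 9 of the 12 pair libraries. MT-CO2, the mitochondrially encoded subunit II of cytochrome c oxidase, and the chromatin protein gene HMGA1 with 2 of its pseudogenes were lower on average with the pair but did not pass. Genes for ribosomal proteins of the large subunit mostly had positive fold changes. Their median of 0.57 lay between 0.66 for all genes tested and 0.44 for those counted in every library. Most drug targets and most ERK target genes were counted in too few libraries to be tested.

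The libraries with the pair were deeper than those with solvent. Total counts ran from 81806 to 198316 in the solvent libraries and from 149160 to 780143 in the pair libraries, a difference of 1.25 on the log2 scale (exact permutation test within runs, two-sided, p = 0.00274, where 0.00137 is the smallest p that its 729 arrangements allow). Genes with a count numbered 1071 to 2967 with solvent and 1292 to 3849 with the pair (mean difference 757.5, exact permutation p = 0.0274). After all libraries were thinned to 81806 counts, the difference was 197.5 genes (exact permutation p = 0.207). The mitochondrial share of counts was 5.81% ± 1.45 (SD, n = 6) with solvent and 4.81% ± 1.03 (SD, n = 12) with the pair (exact permutation p = 0.0206). The barcode fragments differed with the treatment by design. More cells in a pool, more RNA per cell and the barcodes themselves cannot be told apart here. Depth moved with treatment in every comparison with solvent below.

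**Figure D1:**
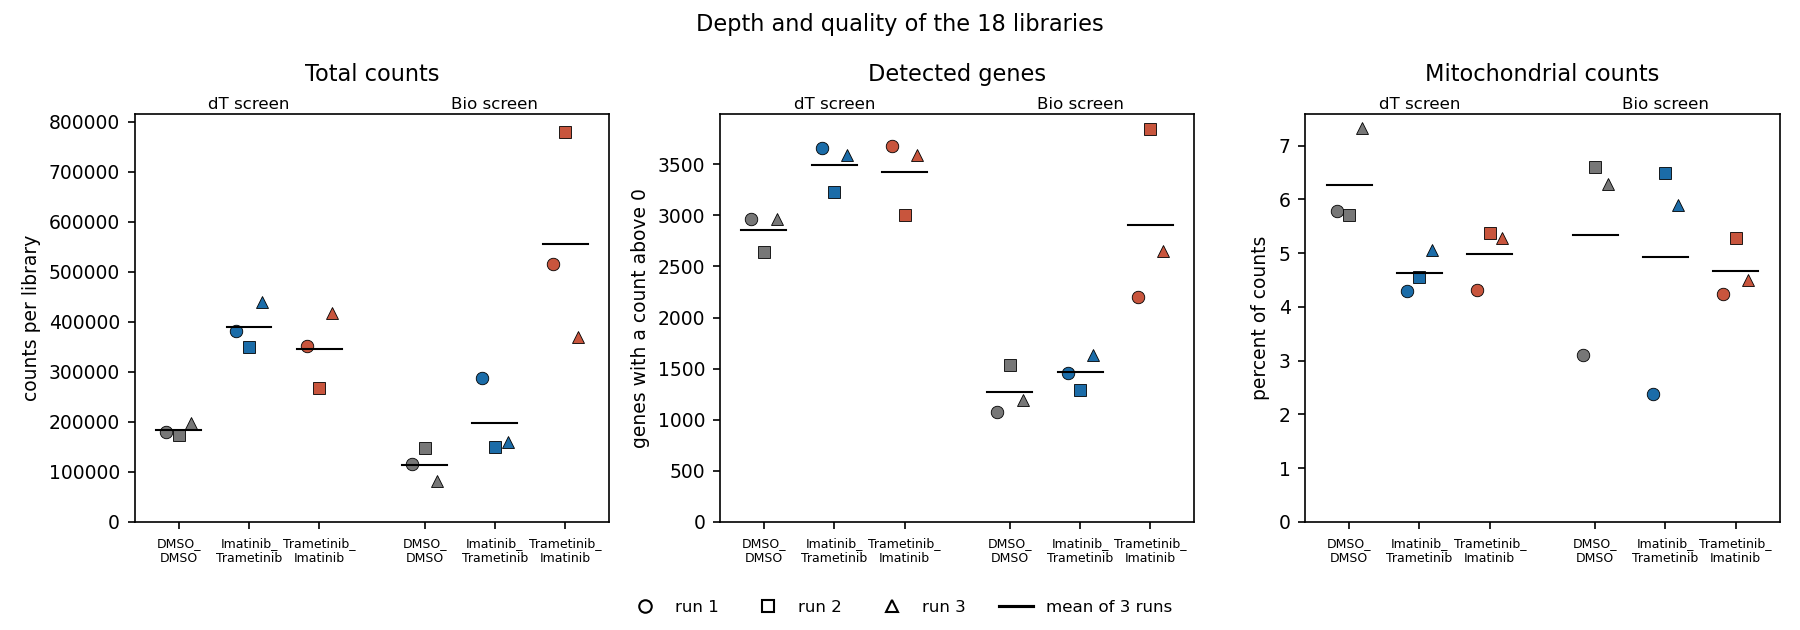
Total counts, genes with a count above 0 and the percent of counts from mitochondrial genes in each of the 18 libraries, by screen and drug order, with runs as symbols and the mean of 3 runs as a line. The 3 Bio solvent libraries hold 81806 to 147320 counts and the 3 Bio Trametinib_Imatinib libraries 368984 to 780143.

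Markers of K562 cells were checked against those of other cell types. HBG2, the gamma-globin gene of fetal haemoglobin that K562 cells make, was counted in all 18 libraries at 24837 CPM (counts as a share of the library's total, per 1e6 counts) on average with solvent and 28313 CPM with the pair. The summed level of the 16 K562 markers was 18617 to 38847 CPM with solvent and 17351 to 44390 CPM with the pair, and EPOR was at 0 throughout. The 5 monocyte and granulocyte markers and the 6 fibroblast and endothelial markers in the table were at 0 in every library. Of 9 lymphoid markers 7 were at 0 in every library, and CD3D had counts in 3 pair libraries. Of 9 epithelial markers, CDH1 was counted in all 18 libraries at 108 CPM with solvent and 156 CPM with the pair, and KRT19 in 2 solvent and 9 pair libraries.

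The drug targets themselves were sparse. BCR had counts in 4 of 6 solvent and 4 of 12 pair libraries, ABL1 in 3 and 5, MAP2K1 in 2 and 1, and MAPK3 in 2 and 6, so none of these genes was tested. MAP2K2, which encodes MEK2, was counted in every library, at 212 to 2677 CPM with solvent and 6.70 to 3053 CPM with the pair. The groups overlapped over nearly their whole range. Its log2 fold change was 0.43 with a standard error (SE) of 1.07 (adjusted p = 0.935), and -0.01 with DESeq2's size factors. Of the 27 genes of the chain from BCR-ABL to ERK, 7 were tested and 0 passed, with a summed level of 964 to 5317 CPM with solvent and 174 to 5748 CPM with the pair.

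Genes induced by ERK or acting back on it could hardly be read at this depth. Of 29 such genes in the table, 1 was tested: SRF, a transcription factor of the serum response, differed by -1.83 (SE 3.34, adjusted p = 0.912), which was 2.23 without the run block. Their summed level ran from 0 to 5061 CPM with solvent and from 0 to 2671 CPM with the pair. Of 14 STAT5 target genes, which form another arm below BCR-ABL, 2 were tested and 0 passed. A change in these genes was not detectable at this depth, which says nothing on whether they changed.

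Over both screens, 1457 genes were tested, those counted in 9 or more of the 18 libraries. By the edgeR quasi-likelihood test with screen and run as a block, 1 gene passed at an adjusted p under 0.05 (0.0686% of the genes tested). At an unadjusted p under 0.05 there were 133 genes (9.13%), 105 of them higher (7.21%) and 28 lower (1.92%) with the pair. This split was 71 higher and 44 lower with DESeq2's size factors and 70 and 41 with total counts only. DESeq2 called 93 genes in the same design. The median log2 fold change over all genes tested was 0.66 and 68.6% of them were positive. With those size factors in place of TMM the median was 0.35 and with total counts only it was 0.34, so differences are best read against these medians. Detection moved with the fold changes. The 330 genes counted in fewer than 3 of the 6 solvent libraries had a median of 2.26, against 0.44 for the 139 genes counted in every library. Of the 330, 91.5% were positive, and 68 of the 133 genes lay among them. Of the 40 genes counted in fewer than 6 of the 12 pair libraries, 12.5% were positive, and 8 of the 133 lay there. A gene could reach 9 libraries through the 12 pair libraries alone but not through the 6 solvent libraries alone. The split into higher and lower genes thus cannot be read apart from this filter, whose part in it was not tested.

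PYCR1 (chr17:81932384-81942412, minus strand, GRCh38) showed the clearest separation. In the solvent libraries it had 1319, 4072 and 1810 CPM in the dT screen and 6098, 1894 and 1980 CPM in the Bio screen, in the order of runs 1 to 3. In the pair libraries it was at 0 in all 6 Imatinib_Trametinib libraries, and in the Trametinib_Imatinib libraries it was at 2.83, 0 and 462 CPM in dT and at 9.68, 0 and 0 CPM in Bio. The groups did not overlap, and the one pair library with a level of note, run 3 of dT, held 193 counts of PYCR1 and still lay below the lowest solvent library. A count of 0 in these libraries allows 3.85 to 20.1 CPM, which is the level of 3 counts and covers counting error only.

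On the log2 scale the fitted difference of PYCR1 was -10.30 (SE 1.66, adjusted p = 0.00806). Its size depends on the prior count that the fit adds, since most pair libraries are at 0, while the mean level was 2862 ± 1851 CPM (SD, n = 6) with solvent and 39.5 ± 133 CPM (SD, n = 12) with the pair. The Imatinib_Trametinib libraries alone gave an adjusted p of 0.0310 against solvent, the Trametinib_Imatinib libraries alone 0.171, and the difference between the orders an adjusted p of 0.666. PYCR1 was counted in exactly 9 of 18 libraries. Without the run block the adjusted p was 0.134. Without run 3 of the Bio screen it was 0.0725 and without run 2 of the dT screen 0.0813. Leaving out run 1 of Bio, run 1 or 3 of dT, any 1 solvent library or any 1 of the 3 pair libraries with a count took PYCR1 below the detection minimum, so that it was not tested there. Its call remained in 10 of the 12 leave-outs in which it was tested. It was likewise not tested after thinning to equal totals or where counts in 50% of each arm were asked for, and each of these settings called 1 other gene (MT-CO2 and HMGA1P2).

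**Figure D2:**
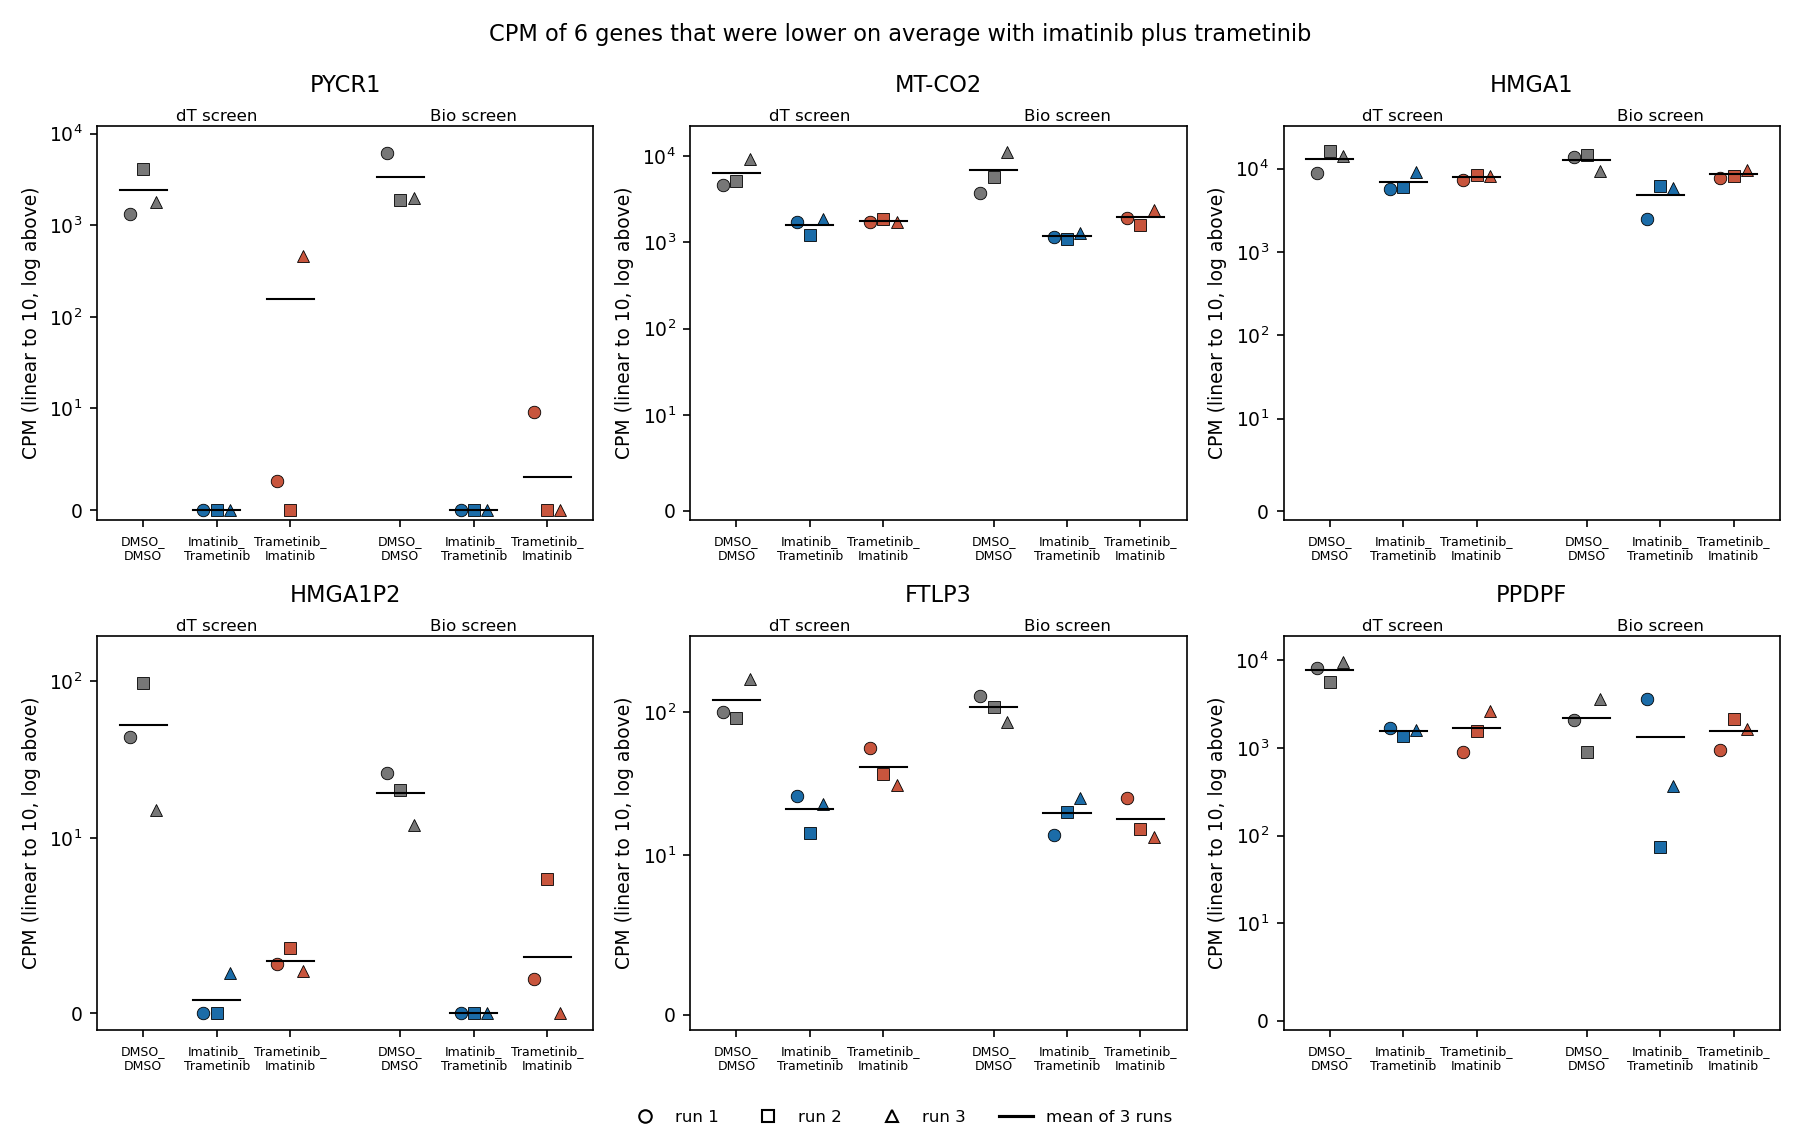
CPM of PYCR1, MT-CO2, HMGA1, HMGA1P2, FTLP3 and PPDPF in each library, by screen and drug order, on an axis that is linear up to 10 CPM and logarithmic above. PYCR1 is at 0 in 9 of 12 pair libraries and at 1319 to 6098 CPM in the solvent libraries, and PPDPF separates the arms in dT but not in Bio.

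The pair libraries lay wholly below the solvent libraries in CPM for 5 of the 1457 genes tested (0.343%) and wholly above them for 0. The 5 genes were PYCR1, MT-CO2, HMGA1P2, HMGA1P8 and FTLP3. MT-CO2 (chrM:7586-8269) had 4607, 5162 and 9147 CPM in the dT solvent libraries and 3723, 5797 and 11234 CPM in the Bio solvent libraries. In the 12 pair libraries it had a lowest value of 1086 CPM, a median of 1712 CPM and a highest of 2380 CPM, so that the highest pair library held less than the lowest solvent library. The log2 fold change was -1.64 (SE 0.38, adjusted p = 0.107), which misses the threshold. With DESeq2's size factors it was -1.98 (adjusted p = 0.0070), after thinning to equal totals -2.02 (adjusted p = 0.00874) and without the run block -1.72 (adjusted p = 0.0465), all of which pass.

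The other mitochondrially encoded mRNAs had values nearer to 0. MT-CO1 and MT-CO3, which encode the other core subunits of cytochrome c oxidase, had log2 fold changes of -0.14 (SE 0.23) and 0.53 (SE 0.28). MT-ND1 of complex I had 0.23 (SE 0.25), which turned to -0.10 with DESeq2's size factors, and MT-CYB of complex III had -0.18 (SE 0.49). Of the 9 tested mitochondrial mRNAs 6 were positive, with a median of 0.41 against 0.66 over all genes tested. At an unadjusted p under 0.05 there were 1 lower (MT-CO2) and 1 higher (MT-ND4, 1.40, adjusted p = 0.537). Over all genes tested, 7.21% were higher and 1.92% lower at that level. The mitochondrial counts became 2 lower and 0 higher with DESeq2's size factors and with total counts only. In mean CPM, MT-CO2 went from 6612 with solvent to 1628 with the pair, MT-CO1 from 16549 to 11961 and MT-CO3 from 12873 to 15585. In dT, MT-CO1 had 19354 to 21748 CPM with solvent and 9089 to 17284 CPM with the pair, without overlap. Wholly below solvent there lay 55 of 2062 genes (2.67%). The summed mitochondrial mRNAs had 52155 to 63394 CPM against 40126 to 50864 CPM in dT. In Bio they had 31108 to 63019 CPM against 23768 to 56926 CPM, with overlap. The part of each gene in the smaller mitochondrial share given above was not tested.

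HMGA1 (chr6:34236873-34246231), an architectural chromatin protein that binds AT-rich DNA, was high in all libraries. It had 8898, 16379 and 14215 CPM in the dT solvent libraries and 13866, 14764 and 9498 CPM in the Bio solvent libraries. In the pair libraries the lowest value was 2476 CPM, the median 7551 CPM and the highest 9583 CPM. The pair library was below the solvent library of its own run in 11 of 12 cases, and the groups overlapped only between 8898 and 9583 CPM. The log2 fold change was -0.55 (SE 0.25, adjusted p = 0.537), or -0.93 with DESeq2's size factors (adjusted p = 0.188). The DESeq2 test called it at -0.93 (adjusted p = 0.0067). Against the separate DMSO controls the sign turned, with a log2 fold change of 1.06 (adjusted p = 0.0763).

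Its processed pseudogenes HMGA1P2 and HMGA1P8 went the same way at far lower counts. HMGA1P2 (chr4:73098822-73099145) had 1 to 17 counts in each solvent library and 0 to 6 in each pair library, which is 12.2 to 97.5 CPM against 0 to 7.69 CPM (log2 fold change -3.58, SE 0.71, adjusted p = 0.0538). Against solvent it fell in the Imatinib_Trametinib libraries (-5.00, SE 0.94, adjusted p = 0.0310), where 5 of 6 libraries were at 0. That call did not hold without any 1 of the 6 runs (adjusted p from 0.061 to 0.229), nor did that of PYCR1 in the same libraries where it could be tested (0.061 to 0.218). HMGA1P8 (chr2:74418122-74418442) had 20.4 to 139 CPM with solvent and 0 to 14.2 CPM with the pair (-3.67, SE 0.87, adjusted p = 0.107). Reads of HMGA1 and of its near copies may not be separable by the counting, so these are not independent of HMGA1. The same holds for FTLP3, a processed pseudogene of the ferritin light chain gene FTL. It had 85.6 to 171 CPM with solvent and 13.6 to 56.7 CPM with the pair (-1.92, SE 0.72, adjusted p = 0.381), while FTL itself differed by -0.16 (SE 0.22). In CPM, FTL averaged 8603 with solvent and 6229 with the pair. The 2 tested genes of iron storage and uptake had a median of -0.29, or -0.63 with DESeq2's size factors. Over all genes tested these medians were 0.66 and 0.35.

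Among the other genes with the smallest p and a negative fold change, most had a few libraries with many counts. LIMS1, an adaptor of integrin adhesions, had 20.4 to 637 CPM with solvent, and 7 of 12 pair libraries were at 0, 4 were at 1.28 to 7.45 CPM and run 3 of dT Trametinib_Imatinib was at 483 CPM (-6.50, SE 1.63, adjusted p = 0.121). TIMM17B, of the protein import complex of the inner mitochondrial membrane, was at 0 in 9 of 12 pair libraries and at 375 CPM in run 1 of Bio Trametinib_Imatinib (-8.08, SE 1.95, adjusted p = 0.112). RPL10P9, a pseudogene of RPL10, was below the solvent library of its own run in 12 of 12 pair libraries (-2.17, SE 0.63, adjusted p = 0.214). RANBP9, ECPAS, SRRM1P3 and ECI2 completed the 12 beside those above, with adjusted p between 0.481 and 0.491.

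Of the genes with the smallest p and a positive fold change, the abundant ones were led by ribosomal protein genes. RPL31 had 21355, 21426 and 26705 CPM in the dT solvent libraries and 18242, 22393 and 40229 CPM in the Bio solvent libraries. With the pair its lowest value was 21502 CPM, its median 31477 CPM and its highest 45694 CPM. The groups overlapped widely. Its log2 fold change was 0.69 (SE 0.15, adjusted p = 0.0763). This lies at the median of all genes tested and above that of the 139 genes counted in every library (0.44). With DESeq2's size factors RPL31 had 0.36 (adjusted p = 0.428).

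RPS16, of the small subunit, had 2384 to 12881 CPM with a median of 8641 CPM in the solvent libraries, against 6620, 12722 and 16919 CPM as lowest, median and highest of the pair libraries. Every pair library was above the solvent library of its own run, which held for 8 of the 1457 genes tested (0.549%), while 9 genes (0.618%) had every pair library below it. The log2 fold change was 0.91 (SE 0.30, adjusted p = 0.307). RPL34 had 0.67 (SE 0.17, adjusted p = 0.121) and was above its own run's solvent library in 11 of 12 pair libraries. RACK1, a scaffold protein of the small subunit, had 6872 to 15379 CPM with solvent and 8193 to 23014 CPM with the pair (0.77, SE 0.22, adjusted p = 0.203).

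**Figure D3:**
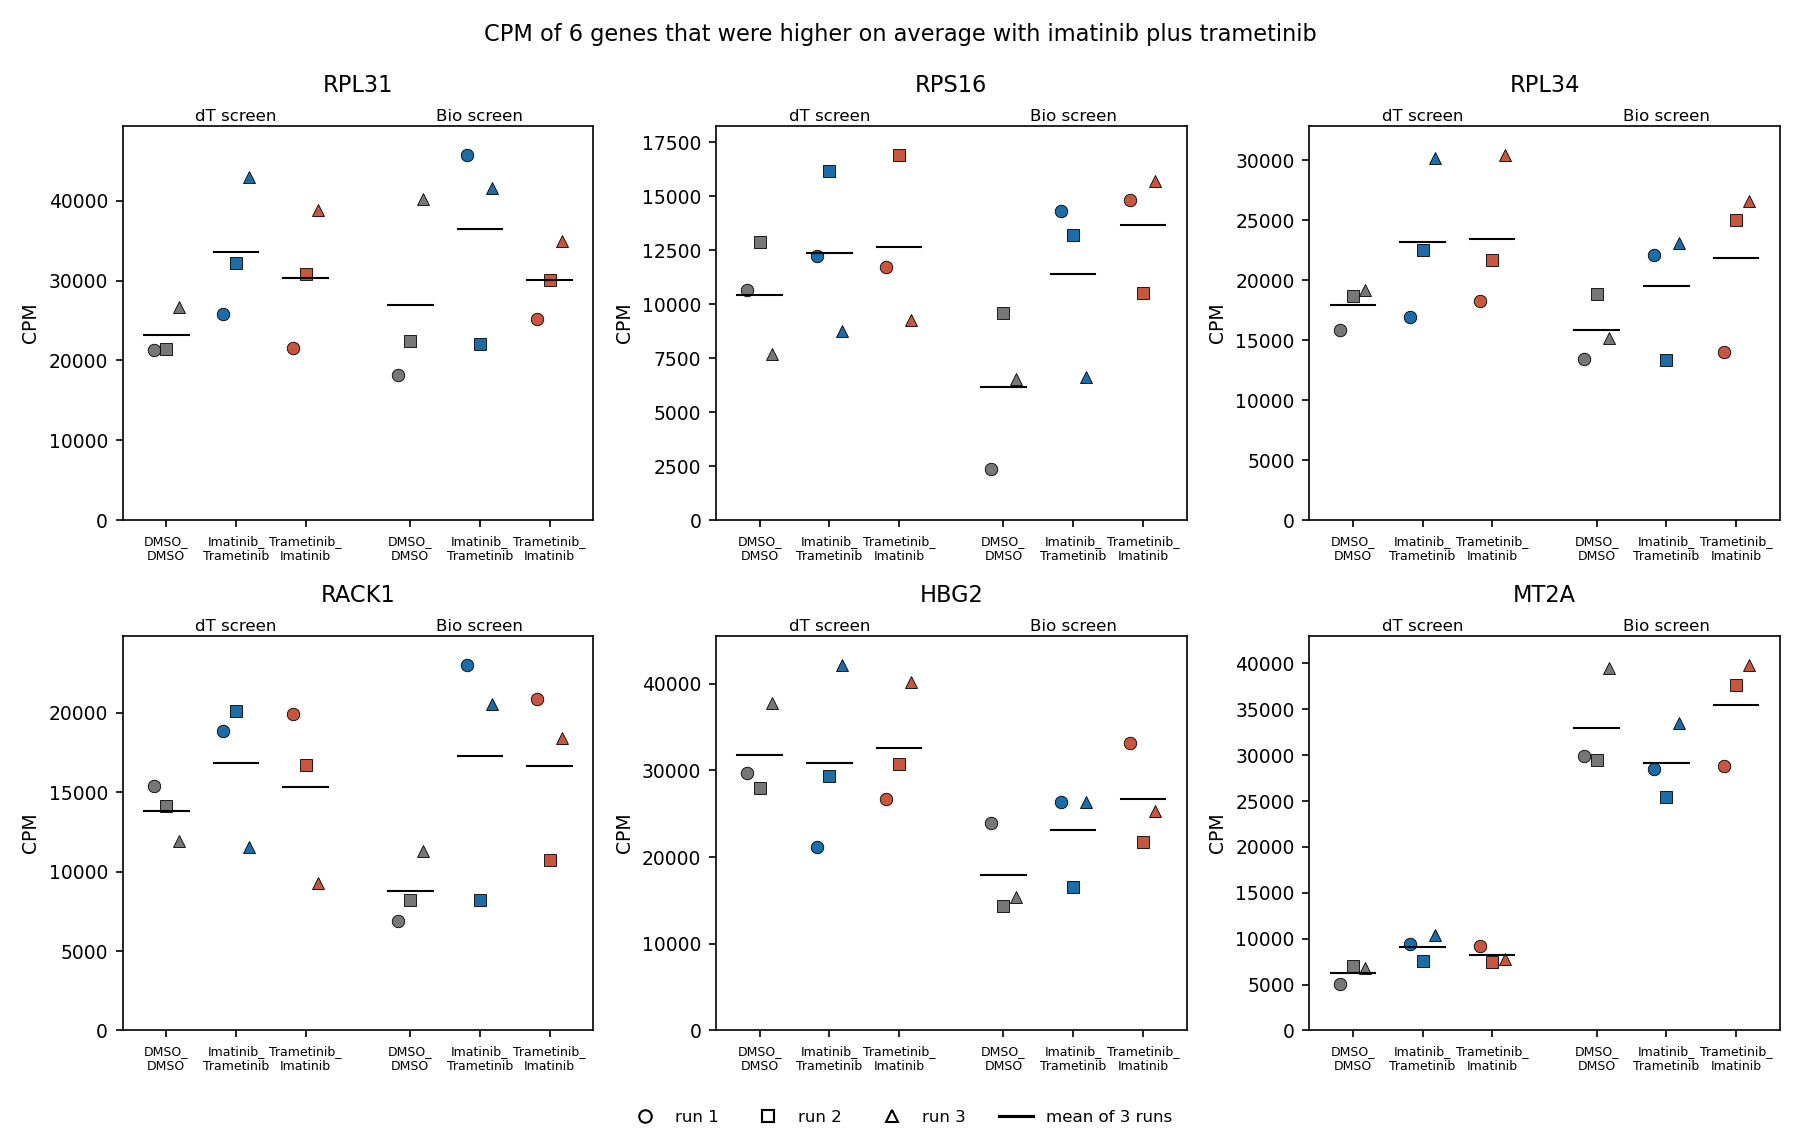
CPM of RPL31, RPS16, RPL34, RACK1, HBG2 and MT2A in each library, by screen and drug order, on linear axes from 0, with runs as symbols and the mean of 3 runs as a line. RPS16 runs from 2384 to 12881 CPM with solvent and from 6620 to 16919 CPM with the pair, and MT2A is several times higher in all Bio libraries than in all dT libraries.

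The other genes with the smallest p and a positive fold change were near 0 with solvent. PPM1G, a nuclear protein phosphatase, was at 11.5 CPM (2 counts) in 1 solvent library and at 0 in the other 5, and ran from 0 to 6718 CPM with the pair, with counts in 10 of 12 libraries (8.31, SE 2.32, adjusted p = 0.190). FUOM, a fucose mutarotase, had 1 count in each of 2 solvent libraries and 0 to 777 CPM with the pair, again in 10 of 12 libraries (7.49, SE 2.18, adjusted p = 0.214). PPM1N had 1 count in 1 solvent library and 1 to 15 counts in every pair library, GPM6A had counts in 2 solvent and 11 pair libraries, and EHBP1-AS1 had 0 to 16.6 CPM with solvent and 14.4 to 58.1 CPM with the pair. EHBP1-AS1 is annotated as antisense, and its reads cannot be told from those of overlapping genes where the strand setting of the counting is not given. The size of these fold changes is set in part by the prior count added in the fit, and none is a bound. Depth moved with treatment, and its part in these values was not tested.

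Ribosomal protein genes and several translation factors share a run of pyrimidines at the start of transcription, the terminal oligopyrimidine (TOP) motif, through which mTOR signalling is known to set their translation. The 30 bases around the first listed RefSeq start (20 before and 10 after it, GRCh38.p14) are shown, with the longest pyrimidine run in capitals. The genes are members named above, RPL13 and RPS15, whose runs are the shortest of those read, and the abundant translation genes EEF2 and NACA.
RPL31 (chr2:101002269-101002298, plus strand): ctcccacaatccttcgcgCTCTTCCTTTCC
RPL34 (chr4:108620556-108620585, plus strand): ctggcaaaggCTTTTTTCTTCCTCTTCCgg
RACK1 (chr5:181243897-181243926, minus strand): ccggcggggggCTTTTCTCTCTCTCTTTCa
RPS16 (chr19:39435940-39435969, minus strand): ccagggtggcccctagCTTTCCTTTTCCgg
RPL13 (chr16:89560637-89560666, plus strand): tggccggCCCTgctatcatcccagagtgca
RPS15 (chr19:1438376-1438405, plus strand): ataaCTgcgcaggcgcggaccaaagcgatc
EEF2 (chr19:3985454-3985483, minus strand): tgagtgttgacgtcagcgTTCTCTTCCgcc
NACA (chr12:56725290-56725319, minus strand): gggtcacgctctcgctcggTCTTTCTgccg
The runs are 12, 18, 18, 12, 4, 2, 9 and 7 bases long, in the order shown, so that RPL13, RPS15 and NACA hold no run of 8. A run of at least 8 pyrimidines lay in this window in 46 of the 64 tested ribosomal protein and TOP genes with a RefSeq start (71.9%) and in 3852 of 27305 genes in all (14.1%).

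Positive values occurred with and without such a run in the window read. RefSeq gives 3 starts for RPL13 and 2 for RPL34, and only the first was read. EEF2, translation elongation factor 2, had a log2 fold change of 1.16 with an SE of 0.64, RPL13 had 0.43 (SE 0.18) and RPS15 0.47 (SE 0.15). Of 49 large-subunit genes 38 were tested, 35 were positive and the median was 0.57. At an unadjusted p under 0.05 there were 7 higher (RPL31, RPL34, RPL30, RPL5, RPL13, RPL8 and RPL23) and 1 lower (RPL9). Over all genes tested, 7.21% were higher and 1.92% lower at that level. Of 33 small-subunit genes 29 were tested and 15 were positive, with a median of 0.11 and 3 higher at that level (RPS15 and RPS16 among them). With DESeq2's size factors and with total counts only there were 4 higher and 1 lower in the large subunit and 2 higher in the small one. Over all 1457 genes there were 71 higher and 44 lower with the size factors, and 70 and 41 with total counts only. With the size factors 26 of the 38 large-subunit genes were positive (median 0.27) and 11 of the 29 small-subunit genes (median -0.26), beside a median of 0.35 over all genes. Both groups thus sat below the median of all genes under either scaling, and the sign of the small-subunit median turned with it. By TMM, the 139 genes counted in every library had a median of 0.44. The large-subunit median lay above that value and the small-subunit median below it. Of the 14 tested elongation factors and other TOP genes 10 were positive, with a median of 0.32.

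The summed level of the large-subunit genes was 131357 to 153944 CPM with solvent and 115225 to 189565 CPM with the pair. In the dT screen it was 131357 to 138315 CPM against 138079 to 189565 CPM, where the groups overlap by the narrowest margin, and in the Bio screen 142997 to 153944 CPM against 115225 to 177791 CPM. The small-subunit sum was 84885 to 114063 CPM with solvent and 88045 to 139018 CPM with the pair. More members had a count in the deeper pair libraries, a median of 39 of the 49 large-subunit genes against 33 with solvent.

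**Figure D4:**
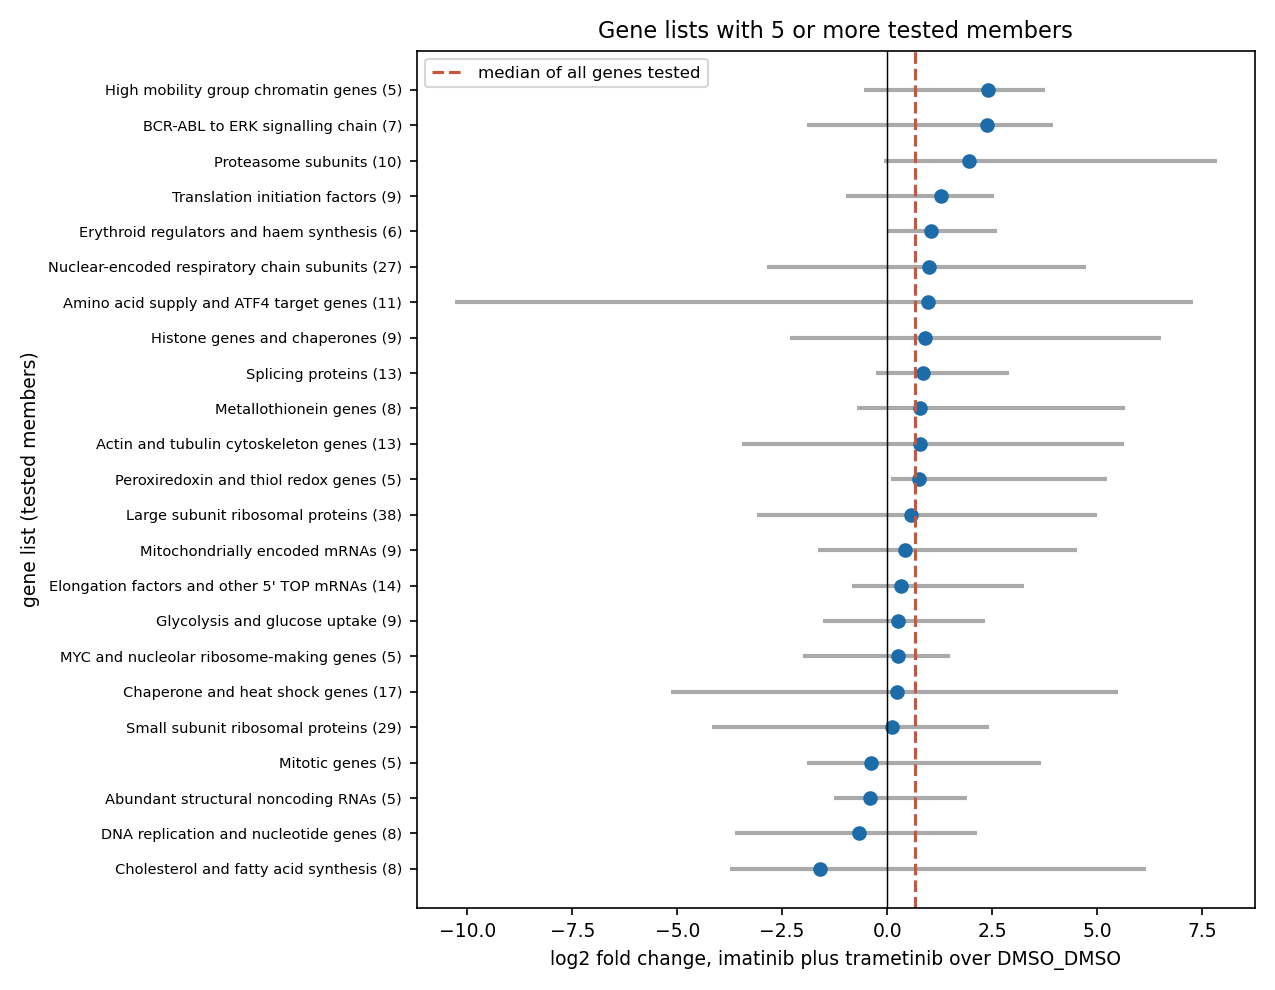
Log2 fold change of imatinib plus trametinib over solvent for the gene lists with 5 or more tested members, as the range of the tested members and their median, with the median of all 1457 genes tested (0.66) as reference. The large-subunit list (median 0.57) and the small-subunit list (median 0.11) lie to the left of that reference. The 139 genes counted in every library had a median of 0.44.

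Oxidative metabolism was followed through the nuclear-encoded subunits of the respiratory chain. Of 52 such genes 27 were tested and 23 were positive, with a median of 0.99 against 0.66 over all genes (0.69 against 0.35 with DESeq2's size factors). At an unadjusted p under 0.05 there were 4 higher, COX6B1, NDUFA11, COX5B and COX7A2, and 0 lower, beside 7.21% higher over all genes tested. With DESeq2's size factors and with total counts only 1 of the 27 was higher. COX6B1, a nuclear-encoded subunit of the same complex as MT-CO2, had 2088 to 4422 CPM with solvent and 2608 to 7839 CPM with the pair (1.00, SE 0.35, adjusted p = 0.338) and was above its own run's solvent library in 11 of 12 pair libraries. In the dT screen the summed level of the list was 23629 to 24726 CPM with solvent and 30811 to 38326 CPM with the pair, without overlap. In the Bio screen it was 17262 to 27504 CPM against 21491 to 35516 CPM, and the groups overlapped. Separation in dT was not particular to this list. There the sums of the metallothionein genes and of the epithelial markers also lay wholly above solvent. Those of the mitochondrial mRNAs and of the amino acid supply genes lay wholly below it.

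Amino acid supply genes, many of them targets of the stress factor ATF4, held the only called gene. Of 28 genes 11 were tested, with 1 lower by the adjusted p (PYCR1) and a median of 0.98. SHMT2, the mitochondrial enzyme that takes a one-carbon unit from serine, had a positive log2 fold change (7.29, SE 2.32, adjusted p = 0.301). It had 4 and 1 counts in 2 solvent libraries and 0 in the other 4, against 0 to 939 counts in the pair libraries. With 9 of 12 pair libraries above 0, it met the detection minimum through the pair alone, and its size depends on the prior count. ATF4 itself had 796 ± 337 CPM (SD, n = 6) with solvent and 525 ± 426 CPM (SD, n = 12) with the pair (-0.56, SE 1.23, adjusted p = 0.923). The summed level of the list was 5178 to 10509 CPM with solvent and 1325 to 4969 CPM with the pair, without overlap. Without PYCR1 it was 2185 to 4410 CPM and 1325 to 4967 CPM, and the groups overlapped.

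The erythroid programme showed no called change. Of 10 globin genes 4 were tested and all 4 were positive, with a median of 0.64. HBG2 had 27907 to 37743 CPM in the dT solvent libraries and 14397 to 23905 CPM in the Bio solvent libraries, against 21142 to 42150 CPM and 16559 to 33096 CPM with the pair (log2 fold change 0.52, SE 0.15, adjusted p = 0.214). Its level differed more between screens than between treatments. Of 30 erythroid regulators and haem synthesis genes 6 were tested and 0 passed, with GYPC, a red cell membrane glycoprotein, at 0.99 (SE 1.30).

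Metallothioneins are small proteins that bind zinc and copper and are known to be induced by metals through the factor MTF1. Of 12 genes 8 were tested and 7 were positive, with a median of 0.79 (0.41 with DESeq2's size factors). At an unadjusted p under 0.05 there were 3 higher, MT2A, MT1X and MT1B, and 0 lower, beside 7.21% higher over all genes tested. With DESeq2's size factors and with total counts only 1 of the 8 was higher. MT2A had 5028, 7008 and 6838 CPM in the dT solvent libraries and 7485 to 10385 CPM in the dT pair libraries, without overlap, which in dT held for 42 of 2062 genes above solvent (2.04%). In Bio, where 20 of 864 genes lay wholly above solvent (2.31%) and 19 wholly below (2.2%), it had 29951, 29494 and 39496 CPM with solvent and 25476 to 39823 CPM with the pair, with full overlap. MT2A differed by 0.52 on the log2 scale (SE 0.14, adjusted p = 0.189) and 0.16 with DESeq2's size factors (adjusted p = 0.888). MT1X, at 1474 to 17163 CPM with solvent and 2322 to 20464 CPM with the pair, had 0.98 (SE 0.27, adjusted p = 0.190).

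The 250 bases before the RefSeq start of MT2A and MT1X are given because these genes had the smallest p of that list, with each match to the core of the metal response element, TGCACNC or TGCGCNC on either strand, in capitals.
MT2A (chr16:56608334-56608583, plus strand, GRCh38.p14): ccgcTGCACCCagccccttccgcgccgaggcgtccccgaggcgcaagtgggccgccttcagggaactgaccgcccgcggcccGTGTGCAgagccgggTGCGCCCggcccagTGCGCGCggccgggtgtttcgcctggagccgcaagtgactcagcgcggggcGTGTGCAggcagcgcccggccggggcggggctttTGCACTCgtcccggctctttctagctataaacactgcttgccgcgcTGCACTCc
MT1X (chr16:56682220-56682469, plus strand, GRCh38.p14): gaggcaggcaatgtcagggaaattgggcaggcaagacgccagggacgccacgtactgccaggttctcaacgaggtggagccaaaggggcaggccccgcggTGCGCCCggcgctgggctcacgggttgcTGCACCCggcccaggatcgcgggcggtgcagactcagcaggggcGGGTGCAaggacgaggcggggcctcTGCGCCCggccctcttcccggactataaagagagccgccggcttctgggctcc
MT2A holds 7 matches and MT1X 4. MT1B, also among the higher genes, holds 3, while MT1H, which is not among them (0.60, SE 1.04), holds 8. At least 4 matches lay in this window in 100 of 27305 genes (0.366%) and at least 1 in 24.7%. The minimum of 4 was set by MT1X itself, and MT1B falls short of it, so the share is no test of these genes.

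Of 8 tested genes of DNA replication and nucleotide supply 3 were positive (median -0.67), and POLE, the catalytic subunit of DNA polymerase epsilon, had an unadjusted p under 0.05 (-3.62, adjusted p = 0.491). Of 17 tested chaperone genes 10 were positive (median 0.25, and 0.00 with DESeq2's size factors), with HSPE1 and BAG1 higher and CALR lower at that level. Of 10 tested proteasome subunits 8 were positive (median 1.96), with PSMD4 higher. Of 13 tested splicing proteins 12 were positive (median 0.86) and 0 had an unadjusted p under 0.05. Of 8 tested genes of cholesterol and fatty acid synthesis 2 were positive (median -1.59). Of 23 apoptosis regulators 1, BAX, was tested (5.50, adjusted p = 0.590). It had counts in 1 solvent and 9 pair libraries, so that it met the detection minimum through the pair alone. None of these genes passed the adjusted threshold. At the unadjusted level 7.21% of all genes tested were higher and 1.92% lower.

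Within the dT screen alone, 2 of 2062 genes passed (0.097%), and 181 (8.78%) had an unadjusted p under 0.05, 123 higher (5.97%) and 58 lower (2.81%). DESeq2 called 103. PPDPF, named for pancreatic progenitor differentiation and proliferation, had 8244, 5678 and 9525 CPM in the solvent libraries, and 1681, 1361 and 1601 CPM in the Imatinib_Trametinib and 901, 1557 and 2667 CPM in the Trametinib_Imatinib libraries. The groups did not overlap, as in 55 of the genes tested (2.67%) that lay wholly below solvent, and PPDPF fell by 2.15 on the log2 scale (SE 0.32, adjusted p = 0.0391). In the Bio screen the same gene had 910 to 3631 CPM with solvent and 73.7 to 3584 CPM with the pair (-0.44, SE 1.45). The screens were not shown to differ in it (difference in the joint fit 2.08, SE 1.28, adjusted p = 0.678). The dT call of PPDPF was lost without the run block (adjusted p = 0.192) and without run 1, run 2 or run 3 (adjusted p from 0.331 to 0.698).

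RPL31 was the other dT call (0.56, SE 0.09, adjusted p = 0.0391), against a median of 0.41 over the 2062 genes. It was not called with DESeq2's size factors (0.33, adjusted p = 0.550), without the run block (adjusted p = 0.444) or without run 2 or run 3 (adjusted p = 0.698 and 0.709). In the Bio screen 0 of 864 genes passed by edgeR, 72 had an unadjusted p under 0.05 (8.33%), 52 higher (6.02%) and 20 lower (2.31%), and DESeq2 called 45. CAST, the calpain inhibitor calpastatin, had the smallest p among the higher there (12.54, SE 3.00, adjusted p = 0.495). It was at 0 in all 3 Bio solvent libraries and entered the test through pair libraries alone, so its size depends on the prior count. In the dT solvent libraries CAST had 682, 0 and 721 CPM. Among the lower it was RRP15, a ribosome assembly factor (-4.51, SE 0.95, adjusted p = 0.251), with 3 to 5 counts in each Bio solvent library and 0 to 1 in each Bio pair library. In dT, RRP15 had 12, 4 and 4 counts with solvent and 0 in every pair library. It was counted in 6 solvent and 2 pair libraries, too few to be tested over both screens.

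No gene had an effect of the pair that differed between the screens by edgeR (119 of 1457 at an unadjusted p under 0.05, or 8.17%, 89 of them higher in Bio (6.11%) and 30 lower (2.06%), and 100 by DESeq2). HBG2 was among those with the smallest p. In separate fits of each screen, each with its own scaling, its log2 fold change was 0.10 (SE 0.10) in dT and 0.65 (SE 0.21) in Bio. The joint fit of both screens gave a difference of 0.89 (SE 0.21, adjusted p = 0.569), which is not the difference of those values. RACK1 had 0.29 (SE 0.13) in dT and 1.01 (SE 0.32) in Bio in the separate fits, where its solvent libraries held 6872 to 11283 CPM against 11900 to 15379 CPM in dT. The Bio solvent libraries were the shallowest of all, with TMM factors of 1.24 to 1.43.

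Each listed order was set against the same 6 solvent libraries. Imatinib_Trametinib gave 2 called genes, PYCR1 and HMGA1P2 (0.137% of 1457), and 108 with an unadjusted p under 0.05 (7.41%), 65 higher (4.46%) and 43 lower (2.95%), and DESeq2 called 75, with a median log2 fold change of 0.36. Trametinib_Imatinib gave 0 called genes by edgeR and 83 by DESeq2, 127 with an unadjusted p under 0.05 (8.72%), 115 higher (7.89%) and 12 lower (0.824%), and a median of 0.83. HMGA1 was at 2476 to 9034 CPM in the first order (-0.94, SE 0.26) and at 7308 to 9583 CPM in the other (-0.25, SE 0.26), a difference of -0.69 (SE 0.26, adjusted p = 0.666). MT-CO2 was at 1086 to 1860 CPM in the first and at 1609 to 2380 CPM in the other (difference -0.58, SE 0.46, adjusted p = 0.948).

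Tested directly, the orders differed in 0 genes by edgeR and in 61 by DESeq2. At an unadjusted p under 0.05 there were 90 (6.18%), 12 higher (0.824%) and 78 lower (5.35%) in Imatinib_Trametinib, and the median difference was -0.45. BANF1, which encodes a chromatin-binding nuclear envelope factor, had the smallest p (-7.78, SE 1.71, adjusted p = 0.341). Depth moved with the order in 1 screen: in Bio the Imatinib_Trametinib libraries held 149160 to 287913 counts and the Trametinib_Imatinib libraries 368984 to 780143, while in dT they held 349824 to 439759 and 268403 to 418070. Its part in the difference was not tested.

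The pair was also compared with each drug given with DMSO, in a fit of 41 libraries (12 with the pair, 12 with imatinib alone, 11 with trametinib alone and 6 with solvent) and 1216 genes. By edgeR 0 genes differed from imatinib alone (74 at an unadjusted p under 0.05, or 6.09%, 52 higher, 4.28%, and 22 lower, 1.81%, and 32 by DESeq2) and 0 from trametinib alone (66, or 5.43%, 39 higher, 3.21%, and 27 lower, 2.22%, and 15 by DESeq2). These comparisons share the pair libraries, and those with solvent share the solvent libraries, so levels are given side by side. MT-CO2 had a median of 5479 CPM with solvent, 1497 CPM with imatinib alone, 2168 CPM with trametinib alone and 1712 CPM with the pair. The pair and imatinib alone differed by 0.18 (SE 0.45), and the pair and trametinib alone by -0.24 (SE 0.46), on the log2 scale. HMGA1 averaged 12937 CPM with solvent, 7844 CPM with imatinib alone, 7027 CPM with trametinib alone and 7063 CPM with the pair. Differences of the pair from the single drugs were -0.03 (SE 0.19) and 0.15 (SE 0.20).

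PYCR1 was counted in too few of the 41 libraries for this fit. It had counts in 2 of 12 libraries with imatinib alone (mean 62.6 CPM, highest 748 CPM) and in 8 of 11 with trametinib alone (mean 998 CPM, highest 4694 CPM), beside 3 of 12 with the pair and 6 of 6 with solvent. With trametinib alone its highest libraries reached into the range of solvent, which those of imatinib alone and of the pair did not. FTL, the ferritin light chain of iron storage, came closest to the threshold. It averaged 8603 ± 2673 CPM (SD, n = 6) with solvent, 7488 ± 2724 CPM (SD, n = 12) with imatinib alone, 12198 ± 3902 CPM (SD, n = 11) with trametinib alone and 6229 ± 1626 CPM (SD, n = 12) with the pair. The pair differed from trametinib alone by -0.95 (SE 0.21, adjusted p = 0.0516), which passed with DESeq2's size factors (-1.11, adjusted p = 0.00163), and from imatinib alone by -0.18 (SE 0.20). Its pseudogene FTLP3 averaged 115 CPM with trametinib alone and 25.1 CPM with the pair.

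**Figure D5:**
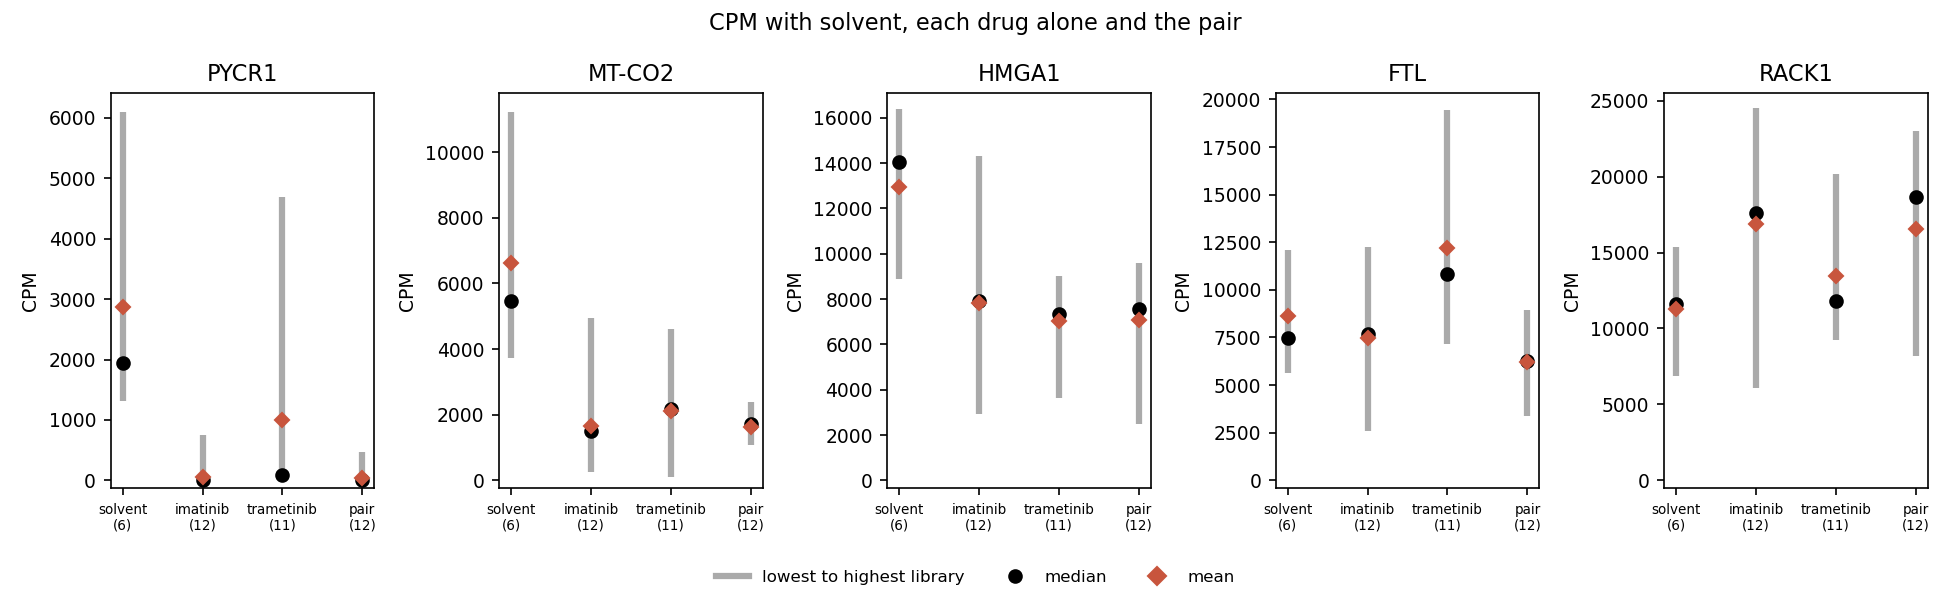
CPM of PYCR1, MT-CO2, HMGA1, FTL and RACK1 with solvent, imatinib alone, trametinib alone and the pair, as the range of the libraries (bar), the median (circle) and the mean (diamond). FTL averages 12198 CPM with trametinib alone and 6229 CPM with the pair, and HMGA1 averages 7027 to 7844 CPM in the 3 drug groups against 12937 CPM with solvent.

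A departure of the pair from the sum of the single drug effects was tested as 1 contrast. By edgeR 0 genes passed, with 82 at an unadjusted p under 0.05 (6.74%), 39 above the sum (3.21%) and 43 below it (3.54%), and 36 genes by DESeq2. The median departure was -0.07. MT-CO2 departed by 1.62 (SE 0.70, adjusted p = 0.704) and HMGA1 by 0.77 (SE 0.31, adjusted p = 0.704), both above the sum. FTL departed by -0.89 (SE 0.32, adjusted p = 0.671). RPL31 departed by 0.19 (SE 0.24).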

How the data were processed

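Read counts per gene, 24965 genes in 102 libraries, were deposited as raw counts in 1 table of the whole series. Per the labels, the authors aligned reads with STAR 2.4.2a to GRCh38, and the annotation, strand setting and handling of molecular identifiers are not given in the sources used here. The study removed the replicate as a batch and filtered low gene counts and a mitochondrial share over 15%. Here 18 libraries were compared, all with at least 1000 detected genes. Genes counted in 50% or more of the libraries were tested with edgeR 4.0.16 in R 4.3.3 (TMM, quasi-likelihood test, screen and run as block, Benjamini-Hochberg over all genes tested, threshold 0.05). Each SE is the absolute log2 fold change divided by the square root of F. DESeq2 1.42.0 was an alternative. Library measures were compared by two-sided exact permutation within blocks. The scripts were tested on simulated data. Counts of 0 are bounded by 3 counts, for counting error only.

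Same-run libraries did not deviate together (residual correlation of 18 pairs, mean 0.0119, range -0.0598 to 0.0637), and the block was kept because the study used it. Of 18 pairs of replicate libraries 0 were identical, and their counts differed by chi-square values of 56.7 or more per degree of freedom. Symbols came from a gene name table (24539 of 24965 IDs matched) and coordinates from GENCODE on GRCh38 by gene ID. Named genes were, by rule, the 12 with the smallest p in each direction over both screens, the 3 in each direction of every other comparison, up to 4 tested members of each list by mean CPM, and the drug targets. Some named genes are not reported here. List members named for an unadjusted p under 0.05, with MT-ND4, POLE, HSPE1, BAG1, CALR, PSMD4 and MT1B, and the genes whose arms did not overlap were chosen after their values were seen. The members and lists were chosen with earlier results of these data known. Alternatives were another scaling, DESeq2, other gene filters, no block, thinning, the separate DMSO controls, a fit of all in-screen libraries and leaving out each run or library, plus, added after seeing the data, a filter that asked for counts in 50% of each arm. The labels give no dose for these libraries. Start sequences are those of the first RefSeq start listed for each gene, on GRCh38.p14.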

Additional observations from a re-analysis of the deposited data

Results flagged for a closer look

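Among 68 groups of 6 libraries (solvent or 1 drug order, for library measures and for genes given by library), 10 held a library that stood apart by its gap to the nearest, where chance gives about 1 in 20 groups. PYCR1 stood at 462 CPM and LIMS1 at 483 CPM in run 3 of dT Trametinib_Imatinib. LIMS1 stood at 6.82 CPM and HMGA1P2 at 2.27 CPM in run 3 of dT Imatinib_Trametinib, which are 3 counts and 1 count. TIMM17B stood at 1358 CPM in solvent run 2 of Bio and at 375 CPM in run 1 of Bio Trametinib_Imatinib. SHMT2 stood at 34.8 CPM in solvent run 1 of Bio, at 3261 CPM in run 1 of Bio Imatinib_Trametinib and at 845 CPM in run 2 of Bio Trametinib_Imatinib. MAP2K2 stood at 3053 CPM in run 3 of Bio Imatinib_Trametinib. No library stood apart in total counts, detected genes or mitochondrial percent. Their causes were not tested.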

How the results depend on the processing

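The count of genes past the threshold over both screens was 1 in the reported fit, 3 with DESeq2's size factors, with total counts only and with no filter on genes, 2 with filterByExpr, 5 among genes counted in every library, 12 in the fit of all in-screen libraries, 93 by DESeq2's own test and 518 against the separate DMSO controls, and 0 to 8 with a run or library left out. Those controls held 35742 to 458945 counts with a mitochondrial share of 5.10% to 36.9%. Without the replicate block it was 2 over both screens, 0 in dT and 1 for Imatinib_Trametinib, and the mitochondrial difference of -0.998 percentage points had an exact permutation p of 0.117 within screens. Leaving out a run moved that difference between -1.24 and -0.766, which missed 0.05 without run 1 or run 3 of dT (exact permutation p = 0.06996 and 0.0864), and that of detected genes between 702.5 and 813.7, which missed 0.05 without run 1 of Bio or any run of dT (exact permutation p from 0.0535 to 0.0617). In dT the count of 2 became 1 with DESeq2's size factors, 103 by DESeq2, 0 with counts in 50% of each arm and 0 to 1 with a run left out. In Bio the count of 0 became 45 by DESeq2, 5 with filterByExpr and 1 among genes counted in every library. For Imatinib_Trametinib the count of 2 became 75 by DESeq2, 6 among genes counted in every library, 1 with filterByExpr and 1 with counts in 50% of each arm, and 0 with each of the 6 runs left out. For Trametinib_Imatinib it was 83 by DESeq2 and 2 among genes counted in every library. DESeq2 gave 61 genes for the order difference, 100 for the screen difference (3 with filterByExpr), 32 against imatinib alone, 15 against trametinib alone and 36 for the departure. Against trametinib alone there was 1 with DESeq2's size factors, 8 with filterByExpr and 2 among genes counted in every library. The cause of these moves was not tested.

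With DESeq2's size factors, DESeq2's test, genes counted in every library, total counts only and thinned counts, in that order where given, the log2 fold change was -0.067, -0.0657, -0.00902, -0.0892 and -0.0983 for ENO1 and -0.0961, -0.0972, -0.0447, -0.126 and -0.0846 for MT-ND1. Under the same settings but without the filter on every library it was -0.00124, -0.00254, -0.0552 and -0.0133 for HSP90AB1, and with DESeq2's size factors and test it was -0.00787 and -0.00768 for MAP2K2. Against the separate DMSO controls it was -0.46 for PPM1N, -0.78 for HRAS, -0.33 for EIF4EBP1, -1.02 for EEF2, -0.20 for BLVRB, 0.71 for FTL, -0.39 for MT-CO3, -0.76 for MT-ND1, -0.0145 for MCM7, -0.83 for HMGB2, -1.13 for BAX, 1.06 for HMGA1 and 0.0779 for ATF4. Without the replicate block it was 2.23 for SRF, 0.76 for CCND3, 0.0759 for PIM1 and -0.32 for MCM7. In the fit of all in-screen libraries it was -0.00944 for MAP2K2, -0.0715 for NCL, -0.48 for EIF3G and -0.47 for MCM7. With a run or library left out it ran from -0.12 to 0.62 for MAP2K2, -4.05 to 0.90 for SRF, -2.42 to 1.35 for CCND3, -0.81 to 0.11 for PIM1, -0.00818 to 1.19 for NCL, -0.16 to 0.54 for ENO1, -0.20 to 0.41 for HSP90AB1, -0.88 to 0.50 for YWHAZ, -0.11 to 1.05 for HBZ and -0.68 to 0.0834 for MT-CYB. Depth limited what could be tested, since a gene needed counts in 9 of 18 libraries.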
